A study of Mus musculus with 6 samples.

Results

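Messenger RNA of 47 cell-cycle genes was followed in the epidermis of ARPC4 ko and wt mice, of 41214 genes counted. The members were chosen by symbol for the stage of the cycle at which they act. There were 9 genes of G1 and the entry into S phase (G1/S), 13 of DNA replication (S), 20 of G2 and mitosis (G2/M) and 5 inhibitors of cyclin-dependent kinases (CDK). All 47 matched a row of the count files, and 46 passed the filter on low counts. Cdkn2a did not pass it.

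The ARPC4 ko group held 3 libraries and the wt group 3, all from C57BL/6 epidermis at postnatal day 4, from skin treated with trypsin. The labels call the mutant an ARPC4 ko and its titles write hom. They do not say what drove the deletion, in which cells it took place or whether the wt mice carried any allele of the system, nor whether each library came from a separate animal. The p-values therefore measure the spread between these samples only. The study compared ko with wt epidermis. ARPC4 is a subunit of Arp2/3, the complex that starts new branches on actin filaments.

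In the cell cycle, D-type cyclins with Cdk4 and Cdk6, and then E-type cyclins with Cdk2, inactivate the retinoblastoma proteins and free E2F factors, which switch on the replication genes. Genes of mitosis are switched on later, largely through B-MYB and FOXM1, which act with the MuvB complex at elements called CHR (cell-cycle genes homology region), and through NF-Y at CCAAT boxes, while the inhibitors hold the kinases back. In the epidermis, dividing keratinocytes lie in the basal layer and leave the cycle as they move up into the suprabasal layers.

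Arpc4 itself was measured at 67.5, 65.6 and 64.4 CPM (counts scaled to a common library size) in ko replicates 1 to 3, against 72.5, 82.5 and 73.1 CPM in wt replicates 1 to 3. The 3 ko values were the lowest of the 6, and the log2 fold change of -0.21 (SE 0.10) did not pass the test (edgeR adjusted p = 0.469). Since the removed stretch is not named in the labels and the counts cover the whole gene, the genotype could not be checked from this level. Depth ran between 17561294 and 22659511 counts in genes, and counting error weighs most on scarce members such as Cdkn1c, Ccne1 and Cdkn2a. Titles of replicates 1 and 2 in both groups carry a date, while those of replicate 3 carry the word Tryp and no date. They are called dated (4 libraries) and undated (2 libraries) here, and what the difference stands for is not given.

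The mean levels of the 3 phases moved together from library to library, and by these means the libraries did not sort by genotype. The G2/M genes had mean levels of 3.28, 3.55 and 5.08 log2 CPM in ko replicates 1 to 3, against 3.79, 2.46 and 4.61 log2 CPM in wt replicates 1 to 3. The S genes had means of 3.96, 4.01 and 5.22 log2 CPM in ko and 4.31, 3.36 and 4.81 log2 CPM in wt. The G1/S genes spanned less, with 4.04, 4.08 and 4.92 log2 CPM in ko and 4.32, 3.59 and 4.63 log2 CPM in wt. In each phase the order of the means was the same. From highest to lowest it ran ko 3, wt 3, wt 1, ko 2, ko 1 and wt 2. Single genes had this full order in 2 of 9 G1/S, 6 of 13 S and 16 of 20 G2/M genes, beside 373 of 13704 genes tested. The mean of the 4 measured CDK inhibitors did not share the order. It was 5.33, 5.35 and 4.65 log2 CPM in ko and 4.73, 4.86 and 5.03 log2 CPM in wt.

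**Figure D1:**
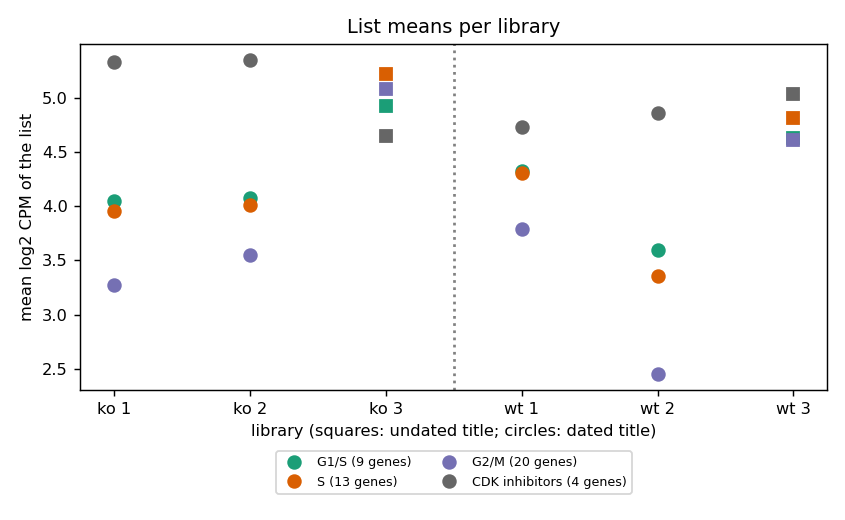
Mean log2 CPM of each list (y axis) in each library (x axis, ko left of wt), with undated libraries as squares and dated ones as circles. The 3 phase lists were highest in ko 3 and wt 3 and lowest in wt 2, and the G2/M list spanned the widest range, with 5.08 in ko 3 and 2.46 in wt 2.

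The phases differed in how far they moved. The median distance between a gene's highest and lowest library was 2.62 log2 for G2/M genes, 2.12 for S genes and 1.47 for G1/S genes, beside 0.77 over all 13704 genes tested. The G2/M mean lay below the G1/S mean by 0.77 and 0.53 log2 in ko 1 and ko 2 and above it by 0.16 in ko 3. In wt, the G2/M mean minus the G1/S mean was -0.54, -1.14 and -0.01 log2 in replicates 1 to 3. In bulk tissue, fewer cells of a type and less RNA per cell cannot be told apart, here or in the results that follow.

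Against wt, 0 of the 46 measured members passed the test in ko (edgeR quasi-likelihood, Benjamini-Hochberg over all genes, threshold 0.05), where 0.219% of all genes tested passed it. DESeq2 called 0 members where it called 4.21% of genes, and limma-voom called 0 members and 0 genes. With the undated and dated libraries as a further term, 0 members passed and 5.17% of genes did. At an unadjusted p under 0.05 there were 3, Ccnd3 and Cdkn1c with values above 0 and Cdkn1b with one below, beside 7.98% of all genes higher and 5.25% lower. The median log2 fold change, ko over wt, was 0.20 for the 9 G1/S genes, 0.29 for the 13 S genes, 0.35 for the 20 G2/M genes and 0.04 for the 4 inhibitors, beside 0.02 over all genes. Values above 0 were found in 6 of 9, 12 of 13, 20 of 20 and 2 of 4 members, and in 53.1% of all genes.

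These medians rested on single libraries. Without ko 3 they were -0.33, -0.30 and -0.45 for G1/S, S and G2/M. Without wt 3 they were 0.49, 0.69 and 0.97, and without wt 2 they were -0.03, 0.03 and -0.03. Without ko 1 they were 0.35, 0.55 and 0.63, and without ko 2 they were 0.35, 0.55 and 0.59. No member passed in any of the fits that left out 1 library.

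**Figure D2:**
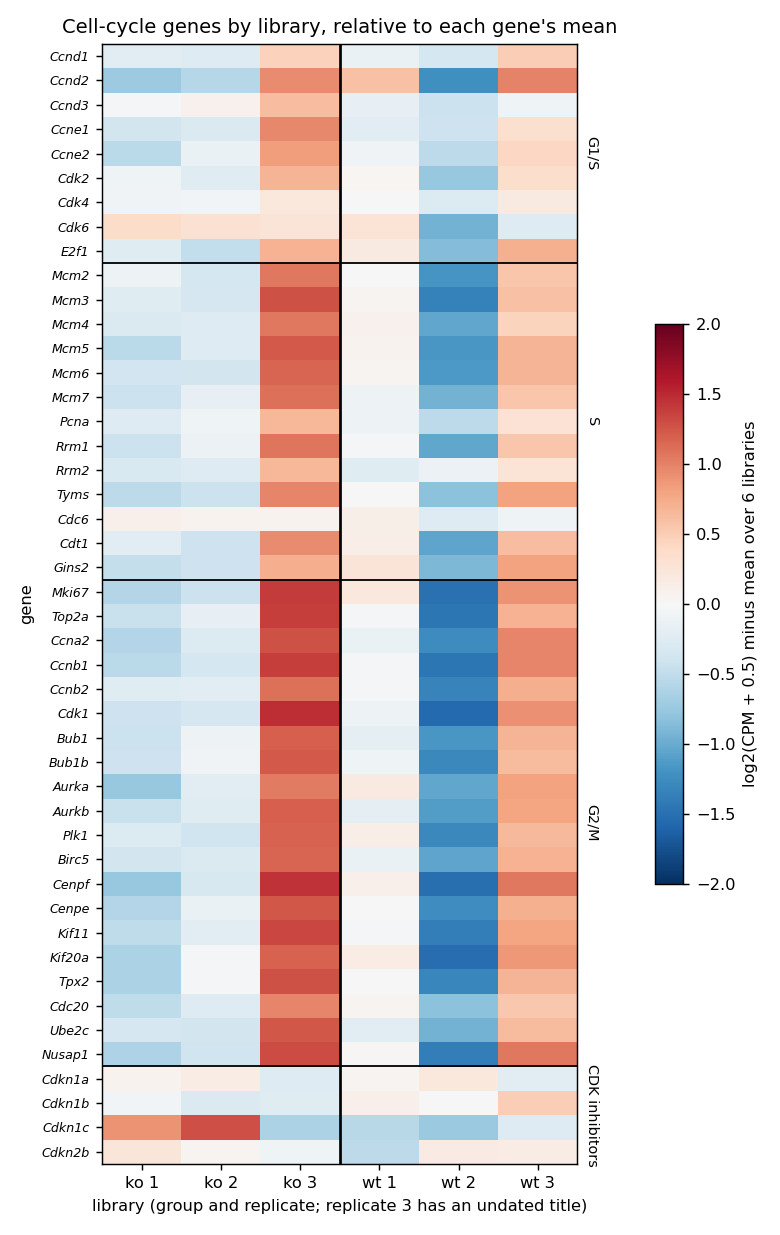
Each row is 1 of the 46 measured members and each column 1 library, with ko left of wt. The colour gives log2(CPM + 0.5) minus the gene's mean over the 6 libraries, and the S and G2/M rows are mostly red in ko 3 and wt 3 and deepest blue in wt 2, while Cdc6, Cdk6, Rrm2 in wt 2 and the inhibitors depart from that pattern.

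The start regions of the phase members were searched for motifs of the gene programs named above. RefSeq promoter windows, 250 bases before to 50 after the gene start, were found for 33 of the 42 G1/S, S and G2/M members on GRCm38.p6, the same assembly as mm10. Both strands were searched. The CHR element was read as TTTGAA, with TTCGAA as its variant form. The CCAAT box was read by its own letters. The E2F site was read in any of 4 forms, which were TTCCCGC as the first form, TTGGCGC as the second form, TTCGCGC as the third form and TTGCCGC as the last form. A gene was counted where any of its windows held a match. A CHR element was present in 12 of 16 G2/M genes, 2 of 11 S genes and 0 of 6 G1/S genes. It was present in 21.7% of all 27025 genes with a window. CCAAT was present in 14 of 16, 8 of 11 and 2 of 6, beside 41.1%. Both motifs in 1 window were present in 12 of 16 G2/M genes, beside 8.61%. E2F letters were present in 3 of 16 G2/M genes, 8 of 11 S genes and 1 of 6 G1/S genes, beside 10.9%. A match is a description of the letters and not of a bound site. Ccnd1, Ccnd2, Ccne2, Mcm4, Gins2, Ccna2, Aurkb, Kif20a and Tpx2 had no entry.

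The 250 bases before the RefSeq start of 3 G2/M genes, 1 S gene and 1 G1/S gene are given as examples of windows with and without the CHR element, read along the strand of the gene, with the matches in capitals (RefSeq, GRCm38.p6). Mki67 and Top2a both hold CHR and CCAAT, and Ube2c has its CHR (TTCAAA on the strand shown) close to the start.
Mki67, chr7:135716380-135716629, minus strand: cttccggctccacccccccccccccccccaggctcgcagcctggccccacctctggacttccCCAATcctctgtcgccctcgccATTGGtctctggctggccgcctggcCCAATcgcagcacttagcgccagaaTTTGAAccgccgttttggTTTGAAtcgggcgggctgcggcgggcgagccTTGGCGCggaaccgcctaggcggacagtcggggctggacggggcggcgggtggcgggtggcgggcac
Top2a, chr11:99024190-99024439, minus strand: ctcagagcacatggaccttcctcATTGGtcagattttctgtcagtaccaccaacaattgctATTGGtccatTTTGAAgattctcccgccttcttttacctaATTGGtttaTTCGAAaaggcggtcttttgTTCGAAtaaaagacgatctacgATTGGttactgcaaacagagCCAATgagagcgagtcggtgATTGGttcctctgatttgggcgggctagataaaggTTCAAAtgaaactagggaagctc
Ube2c, chr2:164769679-164769928, plus strand: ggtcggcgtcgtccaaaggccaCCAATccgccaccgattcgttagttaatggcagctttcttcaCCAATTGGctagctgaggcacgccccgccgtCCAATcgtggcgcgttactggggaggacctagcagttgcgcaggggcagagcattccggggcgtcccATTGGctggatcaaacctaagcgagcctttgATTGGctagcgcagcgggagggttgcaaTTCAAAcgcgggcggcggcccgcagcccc
Rrm2 and Cdk2 hold CCAAT and E2F letters and no CHR in these windows.
Rrm2, chr12:24708004-24708253, plus strand: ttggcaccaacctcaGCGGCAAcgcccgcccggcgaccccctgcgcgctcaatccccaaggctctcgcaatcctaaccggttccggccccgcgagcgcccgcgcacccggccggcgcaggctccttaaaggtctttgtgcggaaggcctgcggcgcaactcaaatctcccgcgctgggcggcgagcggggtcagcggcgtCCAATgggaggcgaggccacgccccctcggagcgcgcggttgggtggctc
Cdk2, chr10:128705052-128705301, minus strand: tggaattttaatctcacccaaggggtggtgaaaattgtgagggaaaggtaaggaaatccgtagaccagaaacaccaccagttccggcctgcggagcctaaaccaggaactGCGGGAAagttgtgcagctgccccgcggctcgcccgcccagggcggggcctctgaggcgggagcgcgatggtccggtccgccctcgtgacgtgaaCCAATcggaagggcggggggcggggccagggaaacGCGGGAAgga

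Among the G1/S genes, the cyclin Ccnd3 was the member whose groups did not overlap. Ccnd3 (ENSMUSG00000034165, mm10 chr17:47505051-47599691, plus strand), a D-type cyclin that activates Cdk4 and Cdk6, had 58.4, 63.5 and 91.9 CPM in ko replicates 1 to 3, against 53.1, 44.3 and 55.9 CPM in wt replicates 1 to 3. The lowest ko library lay above the highest wt library, as it did for 11.3% of all genes. Its mean was 71.2 ± 18.0 CPM in ko and 51.1 ± 6.03 CPM in wt (SD, n = 3 each), with a log2 fold change of 0.48 (SE 0.20, edgeR adjusted p = 0.369). The log2 fold change was 0.22 without ko 3 and ran between 0.38 and 0.60 without any other 1 library.

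The other D-type cyclins were highest in wt 3, then in ko 3, and lowest in wt 2. Ccnd1 had 37.8, 36.6 and 60.5 CPM in ko and 40.2, 34.5 and 61.8 CPM in wt. Its 2 undated libraries were nearly level with each other and stood above the 4 dated ones (log2 fold change, ko over wt, -0.02, SE 0.28, edgeR adjusted p = 0.990). Ccnd2 varied most of the G1/S genes, 4.69-fold with 223 CPM in wt 3 and 47.5 CPM in wt 2.

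Their kinase partners differed in spread. Cdk4 had 83.8, 85.0 and 102 CPM in ko and 88.4, 72.9 and 100.03 CPM in wt, a span of 1.39-fold over the 6 libraries. Cdk6 had 11.6, 11.1 and 10.7 CPM in ko and 10.8, 4.41 and 7.38 CPM in wt, a span of 2.635-fold. The ko libraries of Cdk6 lay close together, and wt 1 fell among them, so the groups overlapped (log2 fold change 0.56, SE 0.31, edgeR adjusted p = 0.524). Without any 1 library the log2 fold change of Cdk6 ran between 0.29 and 0.87.

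At the next step, the E-type cyclin Ccne1 had 2.38, 2.54 and 6.76 CPM in ko and 2.73, 2.29 and 4.17 CPM in wt. Its kinase Cdk2 had 20.8, 18.6 and 35.8 CPM in ko and 22.8, 12.9 and 28.2 CPM in wt. In both genes ko 3 was highest, wt 3 second and wt 2 lowest, and the groups overlapped (log2 fold changes 0.34 with SE 0.48 and 0.24 with SE 0.35, edgeR adjusted p = 0.844 and 0.861). Ccne2, the second E-type cyclin, spanned 2.88-fold and E2f1, the factor that switches on replication genes, 3.39-fold over the libraries.

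Replication genes stood highest in the undated libraries of both genotypes, with 1 exception. Mcm3, a subunit of the helicase that opens DNA ahead of the fork, had 17.8, 16.7 and 52.0 CPM in ko and 22.0, 7.97 and 32.1 CPM in wt. Mcm7, of the same ring, had 17.6, 21.3 and 51.9 CPM in ko and 22.3, 12.2 and 35.3 CPM in wt. In both, the 2 dated ko libraries lay between the 2 dated wt libraries. The log2 fold changes were 0.48 (SE 0.61) and 0.38 (SE 0.51), with edgeR adjusted p of 0.828 and 0.842.

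Pcna, the sliding clamp of the DNA polymerases, had 36.2, 40.6 and 69.0 CPM in ko and 40.03, 29.97 and 53.1 CPM in wt (log2 fold change 0.24, SE 0.30, edgeR adjusted p = 0.824). The enzymes that make deoxynucleotides showed the same 2 libraries on top. Rrm2, the small subunit of ribonucleotide reductase, had 24.4, 25.1 and 48.2 CPM in ko and 25.4, 27.7 and 36.6 CPM in wt. Rrm2 was the 1 S gene for which wt 2 was not the lowest library. Tyms, which makes thymidylate, had 6.85, 7.33 and 20.2 CPM in ko and 10.03, 5.47 and 17.8 CPM in wt. Neither passed the test (log2 fold changes 0.12 with SE 0.30 and 0.04 with SE 0.56, edgeR adjusted p = 0.916 and 0.986).

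Cdc6, which loads the helicase at origins before S phase, was the exception. It had 8.59, 8.39 and 8.38 CPM in ko and 8.75, 6.64 and 7.47 CPM in wt, and spanned 1.32-fold over the libraries, the narrowest of the 46 members. Its loading partner Cdt1 spanned 4.52-fold, with ko 3 highest, wt 3 second and wt 2 lowest. The remaining helicase genes Mcm2, Mcm4, Mcm5 and Mcm6 spanned between 4.35-fold (Mcm4) and 5.44-fold (Mcm5), Rrm1, the large subunit of the reductase, 4.39-fold, and Gins2, of the active helicase, 3.86-fold.

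Every one of the 20 G2/M genes was highest in ko 3 and lowest in wt 2, where 24.0% of all genes were highest in ko 3 and 30.4% lowest in wt 2. Mki67 (ENSMUSG00000031004, mm10 chr7:135689784-135716361, minus strand), which coats mitotic chromosomes and is the standard marker of dividing cells, had 55.1, 61.3 and 219 CPM in ko, against 96.5, 29.2 and 154 CPM in wt. Its mean was 112 ± 93.0 CPM in ko and 93.4 ± 62.7 CPM in wt (SD, n = 3 each). The log2 fold change of 0.26 (SE 0.72) was smaller than its error (edgeR adjusted p = 0.928).

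Top2a, the topoisomerase that untangles sister chromatids, had 58.1, 70.7 and 207 CPM in ko and 77.2, 28.8 and 128.5 CPM in wt (log2 fold change 0.52, SE 0.65, edgeR adjusted p = 0.825). It had the largest fold change of the G2/M genes, and again both dated ko libraries lay above wt 2 and below wt 1. Of the 20 genes, 18 had that arrangement, as 11.98% of all genes did. Bub1 and Bub1b were the exceptions, with ko 2 above wt 1.

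Those 2 genes belong to the spindle checkpoint, which holds anaphase until chromosomes are attached. Bub1 had 4.97, 6.32 and 16.4 CPM in ko and 5.98, 2.76 and 11.3 CPM in wt. Bub1b had 11.6, 14.9 and 37.3 CPM in ko and 14.7, 6.11 and 24.6 CPM in wt. The groups overlapped in both (log2 fold changes 0.46 with SE 0.61 and 0.49 with SE 0.60, edgeR adjusted p = 0.839 and 0.819).

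Aurkb, the kinase of the chromosomal passenger complex, had 5.61, 6.56 and 18.5 CPM in ko and 6.82, 3.35 and 13.9 CPM in wt. Ube2c, the enzyme that passes ubiquitin on to targets of the anaphase-promoting complex, had 7.25, 7.15 and 22.7 CPM in ko and 7.87, 4.62 and 14.8 CPM in wt. Neither passed the test (log2 fold changes 0.34 with SE 0.63 and 0.44 with SE 0.59, edgeR adjusted p = 0.886 and 0.837).

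The rest of the mitotic genes repeated the pattern with different widths. Cdk1, the kinase that starts mitosis, spanned 8.95-fold between ko 3 and wt 2, the widest of all members. Its cyclins spanned 6.03-fold (Ccna2), 8.06-fold (Ccnb1) and 6.12-fold (Ccnb2). Among spindle and kinetochore genes, Cenpf spanned 8.52-fold, Nusap1 7.10-fold, Kif20a 7.21-fold, Kif11 6.90-fold, Tpx2 6.37-fold and Cenpe 6.08-fold. The mitotic kinases Plk1 and Aurka spanned 6.46-fold and 4.91-fold, Birc5 (survivin) 5.07-fold and Cdc20, which activates the anaphase-promoting complex, 3.62-fold. Fold changes of all 20, ko over wt, ran between 0.05 (Aurka) and 0.52 (Top2a) on the log2 scale.

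The CDK inhibitors did not follow the phases. Cdkn1a (p21), a p53 target and the most abundant member, had 614, 645 and 487 CPM in ko and 607, 678 and 497.5 CPM in wt. It was lowest in the 2 undated libraries and level between the groups (log2 fold change -0.03, SE 0.18, edgeR adjusted p = 0.969). Cdkn2b (p15), which blocks Cdk4 and Cdk6, had 25.9, 22.6 and 20.5 CPM in ko and 15.1, 24.7 and 24.2 CPM in wt (0.11, SE 0.21, edgeR adjusted p = 0.893).

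Cdkn1b (p27; ENSMUSG00000003031, mm10 chr6:134920401-134925513, plus strand), which holds Cdk2 in check in resting cells, had 45.1, 38.4 and 39.6 CPM in ko, against 50.1, 46.5 and 66.2 CPM in wt. The highest ko library stayed under the lowest wt library, as for 8.03% of all genes. Its mean was 41.0 ± 3.56 CPM in ko and 54.3 ± 10.5 CPM in wt (SD, n = 3 each), with a log2 fold change of -0.40 (SE 0.16, edgeR adjusted p = 0.348). Without any 1 library its log2 fold change ran between -0.51 and -0.25.

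Cdkn1c (p57; ENSMUSG00000037664, mm10 chr7:143458339-143461050, minus strand), an imprinted inhibitor of the same family, was scarce and split within ko. It had 3.53, 4.79 and 0.89 CPM in ko and 0.97, 0.80 and 1.31 CPM in wt. The 2 dated ko libraries stood above all others, and ko 3 lay among the wt libraries (log2 fold change 1.56, SE 0.60, edgeR adjusted p = 0.331). In the 4 dated libraries alone the log2 fold change was 2.19 and passed the test (edgeR adjusted p = 0.0403), where 1.64% of all genes did. The difference of its ko effect between undated and dated libraries was -2.77 on the log2 scale. Each genotype has 1 undated library, so this difference has no replicate check and no conclusion is drawn from it.

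Markers of fibroblasts and endothelium stood highest in the same 2 libraries as Cdkn1c. The summed level of 9 fibroblast markers was 581, 744 and 167.5 CPM in ko replicates 1 to 3, against 55.8, 129 and 160 CPM in wt replicates 1 to 3. The 9 endothelial markers summed to 22.8, 25.7 and 12.4 CPM in ko and 5.06, 4.52 and 5.35 CPM in wt, with Emcn at 0 in wt 2. All ko libraries lay above all wt libraries in 6 of 9 fibroblast and 9 of 9 endothelial markers, beside 11.3% of all genes tested. Their part in the level of Cdkn1c was not tested.

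Cdkn2a (p16 and Arf), a gene of senescence, had 0 counts in each ko library and 0, 1 and 2 counts in wt replicates 1 to 3. Both groups were at or under the floor of 3 counts, so no fold is given.

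**Figure D3:**
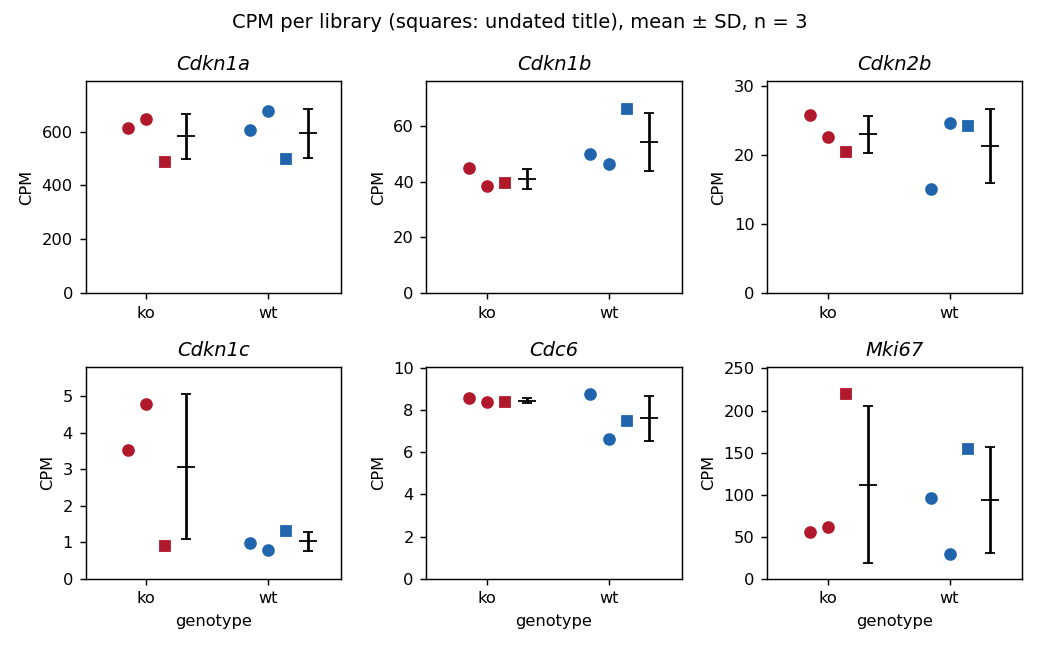
CPM in each library (y axes from 0) for 4 CDK inhibitors, Cdc6 and Mki67, with ko in red left of wt in blue, undated libraries as squares, and the mean ± SD of 3 libraries as bars. Cdkn1b lies lower in the 3 ko libraries, Cdkn1c is high in ko 1 and ko 2 alone, Cdc6 is nearly level, and Mki67 is high in both squares.

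Per length of exon, Cdkn1a was the most abundant member at a mean of 165.5 CPM per kb over the 6 libraries. Cdk4 followed with 27.3 CPM per kb, then Pcna with 18.7 and Cdkn2b with 15.9 CPM per kb. The highest G2/M genes were Top2a with 10.6 and Mki67 with 10.2 CPM per kb, which their spread over libraries does not separate. Reads with more than 1 alignment are not assigned to a gene, and 41.9% of the 51-base stretches of Ccnb1 transcripts and 31.5% of those of Pcna also occur in other genes, among them pseudogenes. For Gins2 the share was 70.3%, with transcripts annotated to the gene Gse1. The share was 33.6% for Mcm7, 31.1% for Kif20a, 29.5% for Cdk4, 27.2% for Ccnd1 and 26.5% for Cdkn1c, and at most 17.6% (Ube2c) for the other members. The count took either strand and did not separate copies elsewhere from genes that overlap the same place. A read in such an overlap can have 1 alignment. The share of reads lost for these 8 genes is therefore not known, and their levels are uncertain.

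The undated libraries were set against the dated ones with genotype in the model, since each genotype has 1 undated library. Replication and mitosis genes were higher in the undated libraries. Of 46 members 25 passed, all higher, where 5.53% of all genes passed as higher and 7.68% as lower (13.2% in all). They were 15 of 20 G2/M genes, 7 of 13 S genes, 3 of 9 G1/S genes and 0 of 4 inhibitors. The median log2 fold change, undated over dated, was 1.45 for G2/M, 1.19 for S, 0.76 for G1/S and -0.17 for the inhibitors, beside -0.01 over all genes. Values above 0 were found in 40 of the 42 phase genes, and in 49.3% of all genes. Both undated libraries lay above all 4 dated ones in 20 of 20 G2/M, 12 of 13 S and 7 of 9 G1/S genes, as in 19.7% of all genes.

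Ube2c had the smallest p of the G2/M genes, with a mean of 18.8 CPM in undated and 6.72 CPM in dated libraries (log2 fold change 1.45, SE 0.22, edgeR adjusted p = 0.0230). Aurkb followed, with 16.2 and 5.58 CPM (1.52, SE 0.26, edgeR adjusted p = 0.0242). Cenpf had the largest change of all members at 1.81 (SE 0.41, edgeR adjusted p = 0.0419). Mki67 (1.62, SE 0.45), Top2a (1.49, SE 0.37), Plk1 (1.36, SE 0.37), Kif20a (1.45, SE 0.43) and Tpx2 (1.42, SE 0.37) missed the threshold, with edgeR adjusted p between 0.0525 and 0.0740.

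Of the S genes, Tyms (1.35, SE 0.23, edgeR adjusted p = 0.0250) and Rrm2 (0.72, SE 0.13, edgeR adjusted p = 0.0265) had the smallest p, and Mcm5, Mcm6, Mcm7, Pcna and Rrm1 also passed. Cdc6 did not differ beyond its error (-0.03, SE 0.18). Of the G1/S genes, Ccnd1 rose by 0.71 log2 (SE 0.10, edgeR adjusted p = 0.0203) and both E-type cyclins rose, Ccne1 by 1.104 (SE 0.24) and Ccne2 by 1.02 (SE 0.25). Cdk6 was at -0.07 (SE 0.32), and Cdkn1a at -0.37 (SE 0.11, edgeR adjusted p = 0.0600). DESeq2 and limma-voom each called 5, 12 and 20 members of G1/S, S and G2/M higher and Cdkn1a lower, where DESeq2 called 21.8% of genes (9.73% higher) and limma-voom 16.4% (7.86% higher).

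These calls depended on the libraries. Without ko 1 or ko 2, 0 members passed (edgeR), where 7 of 13957 and 32 of 14002 genes did. At an unadjusted p under 0.05, 37 members were higher in each fit, beside 1779 and 1693 of all genes. Without ko 3 or wt 3, which leaves 1 undated library, the G2/M median was 1.33 and 1.68. Without wt 1, 8, 12 and 20 members of G1/S, S and G2/M passed, where 3380 of 14025 genes did. Without wt 2, 4, 12 and 20 passed, where 1561 of 14029 genes did. With no genotype term 0 members and 0 of 13704 genes passed. In that fit 39 members were higher at an unadjusted p under 0.05, beside 1728 of all genes. The G2/M median stayed between 1.28 and 1.83 with any 1 library left out. The undated libraries also differed in other measures. Entries marked as aligned to more than 1 place made up 35.1 and 32.4% of their listed counts, against 37.7 to 40.9% in the dated ones. Their 10 most abundant genes held 12.6% of counts in each, against 14.9 to 18.7%. Mitochondrial genes held 1.43 and 1.39% of their counts, against 0.9997 to 1.14%. The part of these measures in the result was not tested.

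**Figure D4:**
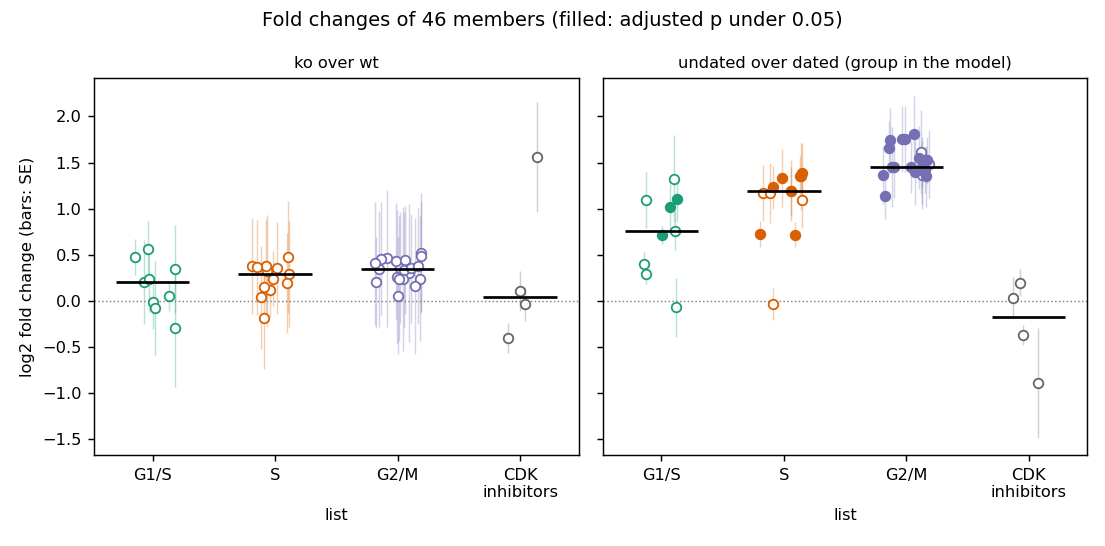
Log2 fold changes of the 46 measured members by list, with bars of 1 SE and black lines at each list's median, for ko over wt on the left and undated over dated libraries on the right. On the left the medians are 0.20, 0.29, 0.35 and 0.04 with no filled point, and on the right they are 0.76, 1.19, 1.45 and -0.17 with 25 filled points (edgeR adjusted p under 0.05).

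Ko and wt were also compared within each kind of library. Between the undated libraries, ko 3 lay above wt 3 in 20 of 20 G2/M, 12 of 13 S and 6 of 9 G1/S genes, where 50.01% of all genes did. The median difference was 0.49, 0.48 and 0.34 log2. That pair has no replicate check. Among the dated libraries the median difference of mean log2 CPM, ko minus wt, was 0.30 for G2/M, 0.16 for S and -0.001 for G1/S. The fit on those 4 libraries gave median log2 fold changes of 0.15, 0.07 and -0.03, and Cdkn1c was the 1 member of 46 that passed it (edgeR), where 1.64% of all genes did. Mki67 was at 0.13 as a difference of means and at -0.13 in that fit. Both dated ko libraries lay below wt 1 and above wt 2 in most phase genes. They did so in 18 of 20 G2/M, 11 of 13 S and 6 of 9 G1/S genes, beside 11.98% of all genes. In those members this arrangement by itself places the dated wt libraries farther from each other than from either ko library.

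The mean of the basal keratinocyte markers put the libraries in the same order as the means of the 3 phases. It was 6.52, 6.81 and 8.53 log2 CPM in ko replicates 1 to 3, against 7.85, 5.18 and 8.36 log2 CPM in wt replicates 1 to 3. Krt5, a keratin of the basal layer, had 1291, 1675 and 5439 CPM in ko and 3422, 845 and 4298 CPM in wt. Its partner Krt14 had 1137, 2051 and 3516 CPM in ko and 1981, 813 and 2359 CPM in wt. Both keratins were lowest in wt 2 and highest in ko 3, as the G2/M genes were, though Krt14 had ko 2 above wt 1. Another keratin of the list, Krt15, was highest in wt 3 at 1982 CPM, then wt 1 at 1082 and ko 3 at 1022 CPM. Col17a1 was also highest in wt 3. Every basal marker was lowest in wt 2, and the others were highest in ko 3.

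The suprabasal markers ran the other way, with means of 11.80, 12.01 and 11.23 log2 CPM in ko and 11.68, 12.01 and 11.29 log2 CPM in wt. Krt10, a keratin of cells that have left the cycle, had 56730, 65458 and 33394 CPM in ko and 43510, 52677 and 31723 CPM in wt, lowest in the undated libraries. Of the 13 basal markers, 0 passed between ko and wt (edgeR), with a median log2 fold change of -0.05. With the basal mean as a further term, the medians of undated over dated were 0.23 for G1/S, 0.43 for S and 0.62 for G2/M. In that fit 0 members passed, and 1 of 13704 genes did. At an unadjusted p under 0.05, 24 members were higher, beside 647 of all genes. The basal mean was 8.53 and 8.36 log2 CPM in the undated libraries and at most 7.85 log2 CPM in the dated ones. On 6 libraries this fit therefore cannot separate the basal term from the undated or dated term, and no conclusion is drawn from the fall in calls. For ko over wt the medians with the basal term were 0.11, 0.19 and 0.28. There 0 members passed, where 797 of 13704 genes did. Krt5, Krt14 and Krt10 were thus abundant in every library labelled epidermis.

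**Figure D5:**
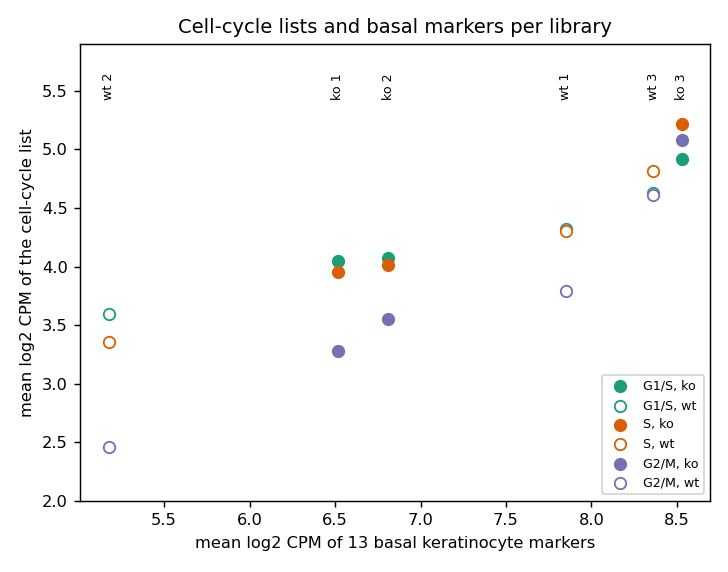
Mean log2 CPM of the G1/S, S and G2/M lists (y axis) against the mean log2 CPM of 13 basal keratinocyte markers (x axis) in the 6 libraries, with ko filled and wt open. The cell-cycle means climb with the basal mean, which is highest in ko 3 at 8.53 and lowest in wt 2 at 5.18, and ko and wt points interleave.

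Further genes of the cycle, in 9 lists with 168 genes, were read from the same fits. Against wt, 0 of 168 passed in ko (edgeR), and 14 had an unadjusted p under 0.05, 7 of them with values above 0 and 7 below, beside 7.98% of all genes higher and 5.25% lower. Between undated and dated libraries 63 passed as higher and 2 as lower, where 5.53% and 7.68% of all genes did. The higher ones were 23 of 35 genes of spindle, kinetochore and cytokinesis, 15 of 27 of the replication fork and nucleotide supply, 7 of 19 of origin licensing and firing, 6 of 14 of checkpoint kinases, CDC25 and repair, and 5 of 11 of condensin and cohesin. Of the RB, E2F and DREAM genes 3 of 19 were higher, of the subunits and regulators of the anaphase-promoting complex 2 of 15, and of other G1 regulators 1 of 10. Of 18 p53 targets 1 was higher and 2 were lower.

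By smallest p between ko and wt, 2 genes a list were named. The RB relative Rbl2 had a log2 fold change of -0.32 and E2f4 one of 0.32. The origin genes Orc2 and Topbp1 had 0.29 and 0.47, the fork genes Rfc1 and Rpa1 had 0.22 and -0.20, and condensin Ncaph2 and cohesin Smc1a had -0.31 and 0.14. Of the repair and checkpoint genes, Brca2 had 1.08 (SE 0.66) and Atr 0.21. The p53 targets Plk2 and Sesn1 had 0.57 and -0.63, and Anapc13 and Anapc1 had -0.29 and 0.21. The edgeR adjusted p of these 14 genes lay between 0.195 and 0.779.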

How the data were processed

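Poly(A) RNA of 3 ko and 3 wt epidermis libraries was sequenced as single-end reads of 51 bp from a stranded kit, per the labels' protocols. The deposited values are raw read counts, 1 row for each Ensembl gene. Per the submitters' processing notes, TopHat2 2.0.12, Bowtie 1.1 and HTSeq were used with the mm10 build. Which strand option and which annotation went into counting was not given in the sources used here, so reads of overlapping and antisense genes cannot be told apart. Reads not assigned to a gene stayed out of library sizes. Entries marked as having more than 1 alignment made up 32.4 to 40.9% of the counts listed, which may not equal a share of reads. Symbols matched 40254 of 41214 identifiers, and coordinates are from GENCODE on mm10.

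Counts were filtered (filterByExpr, 13704 genes), scaled by TMM and tested with edgeR 4.0.16 in R 4.3.3 (glmQLFit, robust, current settings; glmQLFTest; Benjamini-Hochberg over all genes). CPM are counts over TMM-scaled library sizes, and log2 CPM used a prior count of 2. The undated and dated libraries were compared with genotype in the model. DESeq2 1.42.0 and limma 3.58.1 (voom) were alternatives, beside other scalings, filters, covariates and the leaving out of each library. The older quasi-likelihood fit and the term for genotype by undated or dated library were added after seeing the data. The fits were also run on simulated counts with known changes. For ko against wt those counts held no difference between undated and dated libraries, unlike the data.

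The members, lists and tests were chosen with earlier results of these data known. Values in every library are printed for the members with the smallest p (4 a phase between ko and wt, 2 a phase between undated and dated), the most abundant member of each phase, Mki67, Pcna and all inhibitors. The titles' marks I, II and Tryp were taken as replicates 1, 2 and 3. Libraries of a group differed beyond sampling noise (a chi-square of 26.3 to 114 for each degree of freedom), so no library was taken as a second copy of another.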

Additional observations from a re-analysis of the deposited data

How the results depend on the processing

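Between ko and wt, 30 genes passed with the test as reported. Other filters gave 57 (no filter on low counts) and 18 (at least 1 CPM in 3 libraries). Other tests gave 648 (DESeq2), 0 (limma-voom) and 18 (older quasi-likelihood fit). As a covariate, the undated or dated title gave 709 and the basal markers 797. The dated libraries alone gave 227, and leaving out 1 library gave 0 to 64. The count of members passing was 0 in each list under every one of these, except 1 inhibitor, Cdkn1c, in the dated libraries. A replicate block gave 354 genes and 0 members. Deviations of same-numbered libraries correlated at -0.186, 0.469 and 0.67, so the numbers do not pair the samples by a rule of 0.1 for every pair, and ko 1 correlated best with wt 2.

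The medians, ko over wt, ran over -0.33 to 0.49 (G1/S), -0.30 to 0.69 (S), -0.45 to 0.97 (G2/M) and -0.09 to 0.15 (inhibitors) with 1 library left out. Single genes that changed sign with 1 library left out ran over -0.33 to 0.26 (Ccnd1), -0.36 to 0.63 (Ccne1), -0.15 to 0.49 (Cdk2), -0.08 to 0.15 (Cdk4), -0.30 to 0.95 (Mcm3), -0.30 to 0.81 (Mcm7), -0.13 to 0.47 (Pcna), -0.31 to 0.29 (Rrm2), -0.69 to 0.56 (Tyms), -0.72 to 0.84 (Mki67), -0.32 to 1.09 (Top2a), -0.30 to 1.06 (Bub1), -0.23 to 1.03 (Bub1b), -0.45 to 1.0 (Aurkb), -0.38 to 0.98 (Ube2c), -0.16 to 0.07 (Cdkn1a) and -0.13 to 0.22 (Cdkn2b). In the dated libraries alone, values turned to -0.06 (Ccne1), -0.13 (Rrm2), -0.16 (Tyms) and -0.13 (Mki67). Tyms was also -0.01 with limma-voom, -0.02 with the undated or dated title and -0.06 with the basal markers as a covariate. The cause was not tested.

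Between undated and dated libraries, 1811 genes passed, 2786 with DESeq2, 0 with no group term, 1 with the basal markers as a covariate and 1 to 3380 with 1 library left out. Members passing in G1/S, S and G2/M were 5, 9 and 17 with upper-quartile scaling, 5, 12 and 20 with DESeq2 and with limma-voom (and 1 inhibitor), 3, 4 and 7 with no filter, 0 in each with no group term or the basal markers, and 0 to 8, 0 to 12 and 0 to 20 with 1 library left out. Their medians with 1 library left out were 0.66 to 0.99, 0.98 to 1.52 and 1.28 to 1.83, and -0.26 to 0.39 for the inhibitors. With the basal markers they were 0.23 (G1/S) and 0.43 (S). Signs turned for Cdc6 at 0.03 (upper quartile), Cdk6 (-0.28 to 0.27), Cdc6 (-0.11 to 0.08), Cdkn1b (-0.03 to 0.48), Cdkn1c (-2.16 to 0.59) and Cdkn2b (-0.20 to 0.31) with 1 library left out. Cdkn2a, with at most 2 counts in a library, was too scarce to compare.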

Other observations

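Cdkn2c, Fbxw7, Ttk and Espl1, outside the 47 members, were lower in every ko library than in any wt library. By that arrangement alone they could not follow the library order of the phase means, in which ko 3 was highest. The CDK inhibitor Cdkn2c (p18) had 19.5, 18.2 and 19.4 CPM in ko replicates 1 to 3, against 28.5, 34.9 and 29.0 CPM in wt replicates 1 to 3 (log2 fold change -0.69, SE 0.13, edgeR adjusted p = 0.0918). Fbxw7, which marks E-type cyclins for destruction, had 51.2, 44.1 and 44.4 CPM in ko and 69.4, 74.0 and 64.6 CPM in wt (-0.57, SE 0.12, edgeR adjusted p = 0.101). Both had tight groups, and neither was set apart in the undated libraries.

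The spindle checkpoint kinase Ttk had 15.5, 11.9 and 15.2 CPM in ko and 18.9, 24.0 and 24.2 CPM in wt (-0.65, SE 0.17, edgeR adjusted p = 0.168). Espl1 (separase), which cleaves cohesin at anaphase, had 27.9, 19.3 and 24.7 CPM in ko and 28.4, 32.0 and 39.1 CPM in wt (-0.47, SE 0.18, edgeR adjusted p = 0.344). These were the only 2 of 35 spindle genes with groups that did not overlap. In both, the 3 wt libraries stood above the 3 ko libraries, whereas wt 2 was the lowest library for all 20 G2/M members. None of the 4 passed the test. Of the 168 further genes, 10 had all ko libraries below all wt libraries and 8 had all above, beside 8.03% and 11.3% of all genes, and the 4 were taken by smallest p within their lists.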
